A study of Mus musculus with 8 samples.

Results

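The clustered replication-dependent histone genes of the mouse were examined in the ESC line R1 and in 4 secondary iPSC lines. Every gene entry whose name begins with Hist1h, Hist2h, Hist3h or Hist4h was taken, a rule that reads names and no measured value. It found 73 of the 22878 entries, which carry 67 names, since some names are listed at more than 1 locus. By histone type, 6 entries were linker histone H1, 22 were H2A, 19 were H2B, 12 were H3 and 14 were H4. By cluster, 57 belonged to Hist1 on chromosome 13, 12 to Hist2 on chromosome 3, 3 to Hist3 on chromosome 11 and 1 to Hist4 on chromosome 6.

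RNA-seq compared the transcriptomes of the lines. R1 is a mouse ESC line and had 2 libraries. The iPSC line 16-6 came from hematopoietic cells and the line 32 from adipocyte progenitors, both mesodermal, with 2 libraries each, and S8 from ectodermal epidermal cells and T2 from endodermal stomach lining cells had 1 library each. The somatic cells were taken from mice made wholly of iPSCs, whose cells carry Oct4, Sox2, c-Myc and Klf4 under doxycycline control, and doxycycline had been withdrawn before colonies were picked. Each iPSC tissue of origin was represented by 1 line, so that line and tissue cannot be told apart. All lines, R1 included, were grown on mitomycin C-treated mouse embryonic fibroblasts with serum and LIF. The labels give embryo as the tissue of every sample, and the markers of pluripotent cells were expressed throughout, with Pou5f1 between 485 and 1020 FPKM.

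Replication-dependent histone genes supply the proteins that package newly copied DNA, and their mRNAs accumulate in S phase. Most of these mRNAs carry no poly(A) tail. They end shortly after a conserved stem-loop, which is bound by SLBP (stem-loop binding protein) and cut with the help of the U7 snRNP. Some histone genes can also be read through to a poly(A) signal further downstream, mainly in cells that divide slowly or have stopped dividing. The libraries were made from RNA selected on oligo(dT) beads, which capture poly(A) tails, so that the values below measure chiefly the polyadenylated share of histone RNA and not the total.

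The stem-loop was present in nearly all of these genes. It was searched on mm9 within 200 bases after the stop codon as a stem of 6 pairs, with 1 inner pair allowed to be open, around a loop of 4 bases. It was found in 65 of the 67 entries with a matched stop codon, against 307 of 21721 other coding genes (1.41%). Some entries share a stem-loop at the same position, as Hist1h2ao does with Hist1h2ap, so that counts of entries exceed those of distinct stem-loops. Hist1h2an and Hist2h2be had none that met these terms. The 16 letters of stem and loop were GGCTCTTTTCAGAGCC in 40 entries, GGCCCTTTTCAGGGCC in 9, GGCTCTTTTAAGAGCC in 9, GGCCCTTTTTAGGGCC in 2 and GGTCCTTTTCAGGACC in 2. The following genes are shown because they carry the differences described below, with stem and loop in capitals and 5 bases on each side.
Hist1h2bc, chr13:23776511-23776536, plus strand: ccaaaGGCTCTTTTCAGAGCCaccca
Hist1h1c, chr13:23831376-23831401, plus strand: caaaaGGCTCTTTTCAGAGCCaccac
Hist3h2a, chr11:58768669-58768694, plus strand: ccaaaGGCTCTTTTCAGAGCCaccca
Hist1h4i, chr13:22132830-22132855, minus strand: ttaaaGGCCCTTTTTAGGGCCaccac
Hist2h4, chr3:96066857-96066882, minus strand: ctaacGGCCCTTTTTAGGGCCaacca
Hist1h1a, chr13:23856256-23856281, plus strand: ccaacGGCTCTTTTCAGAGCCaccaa

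The genes differed in where their listed transcript stopped relative to the stem-loop. In 38 entries the listed transcript ended before the stem-loop, in 12 it ended at the stem-loop or within 100 bases after it, and in 15 it ran on by more than 100 bases. A poly(A) signal (AATAAA or ATTAAA) stood in the last 50 listed bases of 11 of the 15 that ran on, of 1 of the 12 that ended at the stem-loop and of 0 of the 38 that ended before it. Over all 67 entries 13 had a signal, against 68.4% of other coding genes. Only the last 50 listed bases were searched, so that a signal downstream of the listed end was not looked for. A signal here means these letters, and whether they serve as a poly(A) signal of the gene was not tested. The 38 that ended before the stem-loop were short listings, with a median of 388.5 bases. Their 0 cannot tell whether the genes have a signal further on. The signals of 5 genes whose values follow are given in capitals, from the same build and strands.
Hist1h2bc, chr13:23784321-23784346: atgtatatatAATAAAtgtcatgtaa
Hist1h1c, chr13:23832201-23832226: gtatgcttctAATAAAaagcgtttag
Hist3h2a, chr11:58770148-58770173: tgtctacaaaATTAAAggaagttcca
Hist1h4i, chr13:22132703-22132728: gagtgttgggATTAAAggcgtgcgcc
Hist3h2ba, chr11:58762999-58763024, plus strand: taatggtattAATAAAtttggttcaa

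Hist1h2bc (chr13:23776068-23784349) had 2 exons, and its stem-loop, 34 bases after the stop codon, lay in the intron between them. Its listed end was 7818 bases downstream of the stem-loop along the genome. Hist1h1c (chr13:23830676-23832236) was listed to 840 bases past its stem-loop, Hist3h2a (chr11:58768187-58770176) to 1487 bases and Hist1h4i (chr13:22132685-22133221) to 150 bases. Hist2h4 (chr3:96066893-96067240) was listed to a point before its stem-loop, with no poly(A) signal near its listed end, and Hist1h1a (chr13:23855537-23856283) ended 7 bases past its stem-loop.

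The promoters shared letters that the rule on names did not use. RefSeq promoter windows (GRCm38.p6, 250 bases before to 50 after the start) were matched for 60 of the 67 names and searched on both strands. TATAAA was found in 58.3% of them, against 15.6% of all other promoters, and CCAAT in 85.0% against 40.96%. CCAAT was in every matched H1, H2A, H2B and H3 promoter but in 3 of 12 H4 promoters. The octamer ATTTGCAT, known as a binding motif of POU factors, was found in 23.3% against 1.92%, in 7 of 17 H2A and 7 of 15 H2B promoters and in 0 of the H1, H3 and H4 promoters. Windows of neighbouring H2A and H2B genes on opposite strands can overlap, as for Hist1h2ae and Hist1h2bg, so that a single octamer could be counted for both. Hist1h2bc was among the names not matched. These matches describe letters only.

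The fragments implied by the confidence limits of the deposited FPKM were alike across libraries and came to between 15.5 and 16.7 in units of 1000000 for each library, and 396 to 985 fragments of a library fell on histone entries. The study lists more reads for S8 and T2 than for the other lines, which these fragments do not show, so that the depth of S8 and T2 is uncertain. The S8 and T2 files gave a different FPKM per fragment from those of the other lines, gene by gene, which is taken up below with S8. The replicates of R1, 16-6 and 32 were compared by the chi-square per degree of freedom, where 1 is the spread of sampling alone. It was 0.988, 1.34 and 1.38 over 18, 24 and 21 histone entries with at least 10 fragments in the pair. Over 5308, 4921 and 4968 of all entries, with at least 20 fragments, it was 1.34, 1.08 and 1.29. Entries with fractional or very many fragments were left out, so that the spread of the most deeply read genes was not covered. Nothing says how separately the replicate libraries were grown beyond the name biological replicate, so that p-values measure the spread between these libraries.

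Histone genes were read at low levels. The median over the 73 entries was 0.744 FPKM (mean of the 5 line means), against 2.01 FPKM over all other entries. By comparison, H3f3b and H2afz, genes of replacement histones whose mRNAs are polyadenylated, were at 513 to 749 and 909 to 1548 FPKM. Of the 73 entries 32 were above 0 in every library, 14 were at 0 in every library and 5 reached 10 FPKM in any. Over the 8 libraries together 37 entries had fewer than 20 fragments and 7 had 100 or more, so that the values of most single histone genes carry a wide counting error.

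Few genes held most of the histone reads. Of 5281 implied fragments, 28.0% came from Hist1h2bc, which codes for H2B, 18.5% from Hist1h1c, the linker histone H1.2, 7.65% from Hist3h2a, an H2A gene of the Hist3 cluster, and 4.26% from Hist1h4i, an H4 gene. These 4 genes together held 58.4%, and all 4 were listed past the stem-loop to a poly(A) signal. The 15 entries that ran on held 74.7% of fragments at a median of 1.21 FPKM. The 12 that ended at the stem-loop held 10.3% at a median of 1.61 FPKM, and the 38 that ended before it held 12.0% at a median of 0.679 FPKM. Listed transcripts differ in length between the classes, so that shares of fragments and medians of FPKM are not interchangeable.

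**Figure D1:**
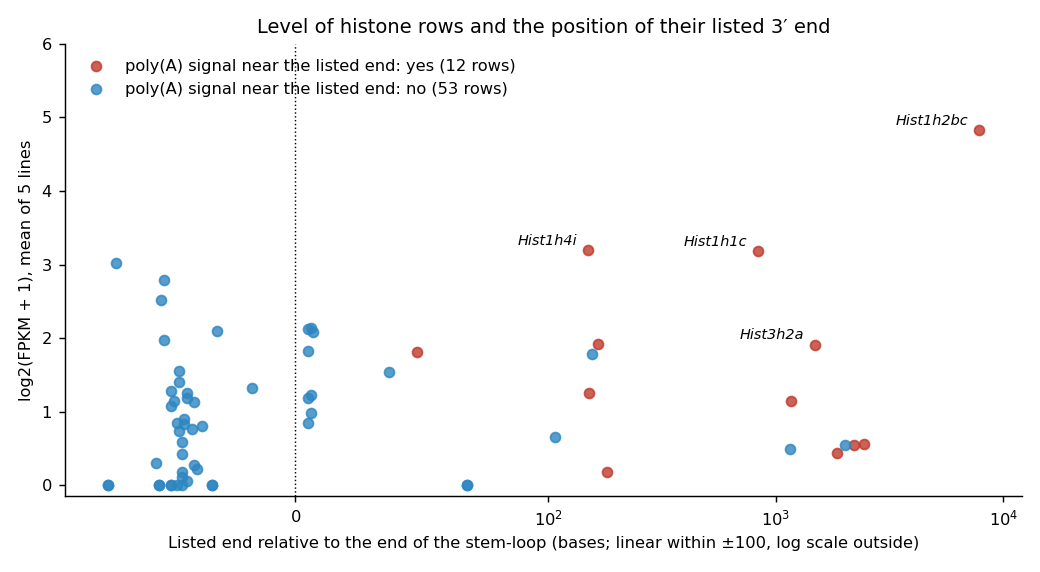
Each point is a histone entry with a stem-loop. The x axis gives the listed end relative to the end of the stem-loop in bases (linear within 100 bases, log scale outside), the y axis log2(FPKM + 1) averaged over the 5 lines, and red marks a poly(A) signal in the last 50 listed bases. Hist1h2bc, Hist1h4i and Hist1h1c, which end 150 bases or more past the stem-loop with a signal, stand above the other entries with a signal.

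By type, H2B held 38.1% of histone fragments, H1 26.2%, H2A 15.9%, H4 10.3% and H3 9.47%. By cluster, Hist1 held 82.3%, Hist3 9.51%, Hist2 6.89% and Hist4 1.27%. Hist1h2bc was the highest H2B gene and the highest of all, Hist1h1c the highest H1 gene, Hist1h2af the highest H2A gene, Hist1h4i the highest H4 gene and Hist1h3g the highest H3 gene. Hist2h4 and Hist3h2ba led the Hist2 and Hist3 clusters. Hist4h4, the only member of its cluster, was at 0.28 to 0.70 FPKM and was not tested.

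The entries at 0 consisted mostly of sequence that recurs in the genome. Only reads that align to a single place were kept by the authors, so that an entry whose sequence recurs in the genome cannot be read in full. In 18 entries fewer than 10% of the 50-base windows of the listed transcript occurred once in the genome. Those 18 included all 14 entries at 0 everywhere and held 0.814% of histone fragments. The 14 were Hist1h2ad, Hist1h3b and both loci of Hist1h2ao, Hist1h2ap, Hist1h2bq, Hist1h4n, Hist2h2aa1 and Hist2h2aa2. Hist1h2ao and Hist1h2ap had their stem-loops at the same positions, as did Hist2h2aa1 and Hist2h2aa2, so that different names can stand for the same locus. In the 55 other entries none was at 0 everywhere. For the genes described here the share of unique windows was 49.2% in Hist1h2bc, 91.5% in Hist1h1c, 97.8% in Hist3h2a and 59.8% in Hist1h4i, and Hist1h2bc was 98.9% identical in coding sequence to Hist1h2bj. Levels of genes with such copies are uncertain. The kit used does not mark strand, so that reads from overlapping genes could not be separated, as for Hist1h1e with Hist1h2be and Hist1h4m with Hist1h4n.

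Each line was compared with R1 on log2(FPKM + 1) with limma over all 8 libraries, and 16-6 with 32 and S8 with T2 in the same fit. The 4 comparisons with R1 share its 2 libraries. A call required a p below 0.05 after Benjamini-Hochberg adjustment together with a log2 difference of at least 1 in size, and 41 of the 73 histone entries reached the 1 FPKM in at least 1 library needed to be tested. A histone entry at high level in 1 line passed this filter through that line. Across the 5 lines 17 of the 41 were called by the overall test (41.5%), against 34.5% of all 13693 genes tested.

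**Figure D2:**
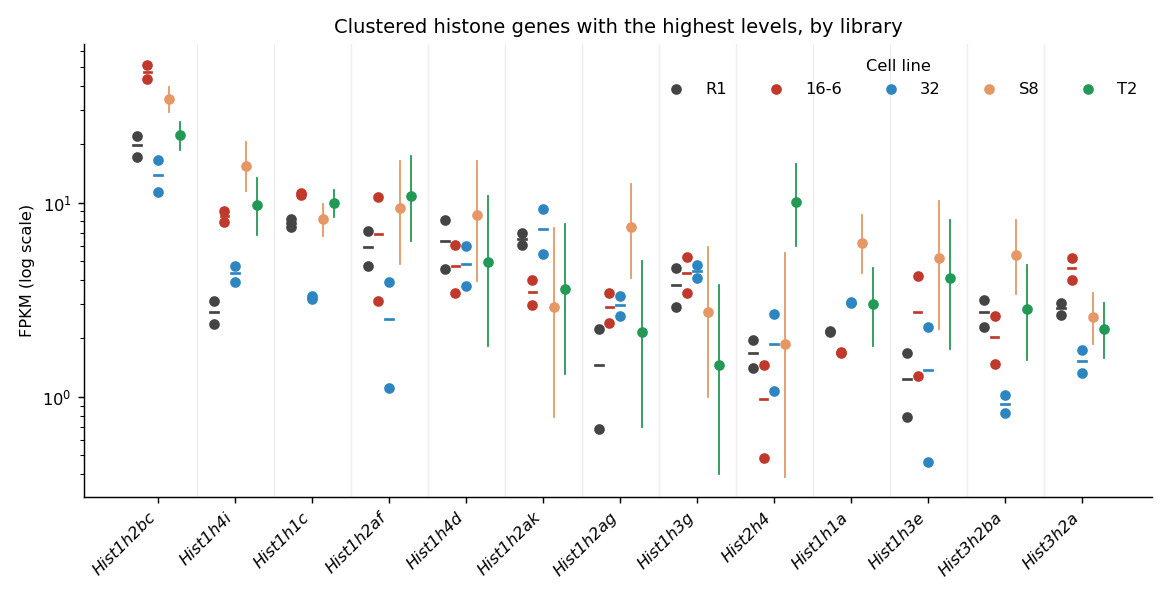
FPKM (log scale) of the 13 histone genes with the highest mean level, with 1 point per library coloured by cell line, short bars for the mean of 2 libraries, and vertical lines for the 95% counting interval in S8 and T2. Hist1h2bc and Hist1h4i of 16-6 lie above both R1 libraries, Hist1h1c of 32 lies below them, and the intervals of most other genes in S8 and T2 reach the points of other lines.

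In 16-6, the line from hematopoietic cells, the most abundant histone gene rose. Hist1h2bc was at 22.1 and 17.3 FPKM in R1 and at 43.1 and 51.3 FPKM in 16-6, on 158, 130, 309 and 368 fragments. Both 16-6 libraries lay above both of R1. The means were 19.7 ± 3.45 and 47.2 ± 5.83 FPKM (SD, n = 2 each), a log2 difference of 1.22 (SE 0.21, adjusted p = 0.00646). Hist1h4i was at 2.36 and 3.11 FPKM in R1 and at 9.09 and 7.95 FPKM in 16-6, again without overlap, a log2 difference of 1.35 (SE 0.14, adjusted p = 0.00123).

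Of the 41 histone entries tested, 5 were higher in 16-6 than in R1 and 0 were lower, while 7.11% of all genes were called, 3.58% higher and 3.53% lower. At an unadjusted p under 0.05, 11 of the 41 passed in either direction. Besides Hist1h2bc and Hist1h4i the called genes were Hist1h2bm and Hist1h2bj (H2B) and Hist1h3i (H3), with log2 differences of 1.18, 1.16 and 1.09. These 3 rested on 13, 13 and 10 fragments over the 4 libraries compared, and Hist1h2bm and Hist1h3i were at 0 in the first R1 library, without which 2 histone genes were called. The median log2 difference of the 41 was 0.30, against -0.03 over all genes. Hist1h1c was at 7.46 and 8.21 FPKM in R1 and at 11.2 and 10.9 FPKM in 16-6, a log2 difference of 0.45 (SE 0.06, adjusted p = 0.00348) that stayed under the fold minimum, as did that of Hist3h2a (0.53, SE 0.14, adjusted p = 0.0270).

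In 32, the line from adipocyte progenitors, the linker histone gene Hist1h1c fell. It was at 3.30 and 3.17 FPKM on 48 and 47 fragments in 32, against 119 and 138 fragments in R1. Both values lay below every other library. The means were 7.83 ± 0.53 FPKM in R1 and 3.24 ± 0.09 FPKM in 32 (SD, n = 2 each), and the log2 difference was -1.06 (SE 0.06, adjusted p = 0.000230). It was the single gene called lower of the 41. Hist1h2bm was the single gene called higher (1.19, SE 0.30, adjusted p = 0.0202), on 12 fragments. Over all genes 9.77% were called between 32 and R1, 1.54% higher and 8.23% lower. With quantile normalization 4 histone genes were called higher and 0 lower, and Hist1h1c, at -0.73, was under the fold minimum, as it was without the second R1 library (-0.998).

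The other abundant histone genes of 32 lay on both sides of R1 without being called, and of the 10 with the highest levels 6 were above R1 and 4 below. Hist1h2bc was at 16.5 and 11.3 FPKM, with a log2 difference of -0.49 (SE 0.21, adjusted p = 0.0977), and both values were below both of R1. Hist3h2a was at 1.32 and 1.74 FPKM in 32 and at 2.65 and 3.05 FPKM in R1 (-0.61, SE 0.14, adjusted p = 0.0159), and Hist3h2ba at 0.82 and 1.02 FPKM in 32 and at 3.15 and 2.29 FPKM in R1 (-0.95, SE 0.21, adjusted p = 0.0138). Neither pair of values overlapped, and both differences stayed under the fold minimum. Hist1h4i was at 3.91 and 4.73 FPKM, above both R1 libraries (0.51, SE 0.14, adjusted p = 0.0244), and Hist1h1a at 3.03 and 3.09 FPKM, above 2.16 and 2.19 FPKM in R1 (0.35, SE 0.06, adjusted p = 0.00507). The median of the 41 was 0.05, against -0.02 over all genes.

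Between the replicated iPSC lines, 16-6 and 32, 3 histone genes were called, and all 3 had a poly(A) signal. Hist1h2bc was higher in 16-6 by 1.71 on the log2 scale (SE 0.21, adjusted p = 0.00173), Hist1h1c by 1.51 (SE 0.06, adjusted p = 6.38e-05) and Hist3h2a by 1.14 (SE 0.14, adjusted p = 0.00183). Hist3h2a was at 4.01 and 5.16 FPKM in 16-6 against 1.32 and 1.74 FPKM in 32, and no value of the lines overlapped for any of the 3 genes. Each call rested on 214 or more fragments. These 3 were the histone genes called higher of the 41, and 0 were called lower, while 11 passed an unadjusted p under 0.05, of which 5 had no signal. Among these, Hist1h1a was at 1.68 and 1.70 FPKM in 16-6 and at 3.03 and 3.09 FPKM in 32, without overlap, a log2 difference of -0.59 (SE 0.06, adjusted p = 0.000861) that stayed under the fold minimum. Hist1h2ak, also lower in 16-6 (-0.87, SE 0.25, adjusted p = 0.0307), and Hist1h2an and Hist1h3d, higher by 0.60 and 0.88 with 4 and 14 fragments over the 8 libraries, stayed under it as well. Over all genes 10.3% were called, 9.22% higher in 16-6 and 1.09% lower, so that the count of histone genes was near the background. The median was 0.22, against -0.06 over all genes. Without the first library of 32 the count was 8, and Hist3h2a missed the fold minimum without the second 16-6 library (0.99).

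**Figure D3:**
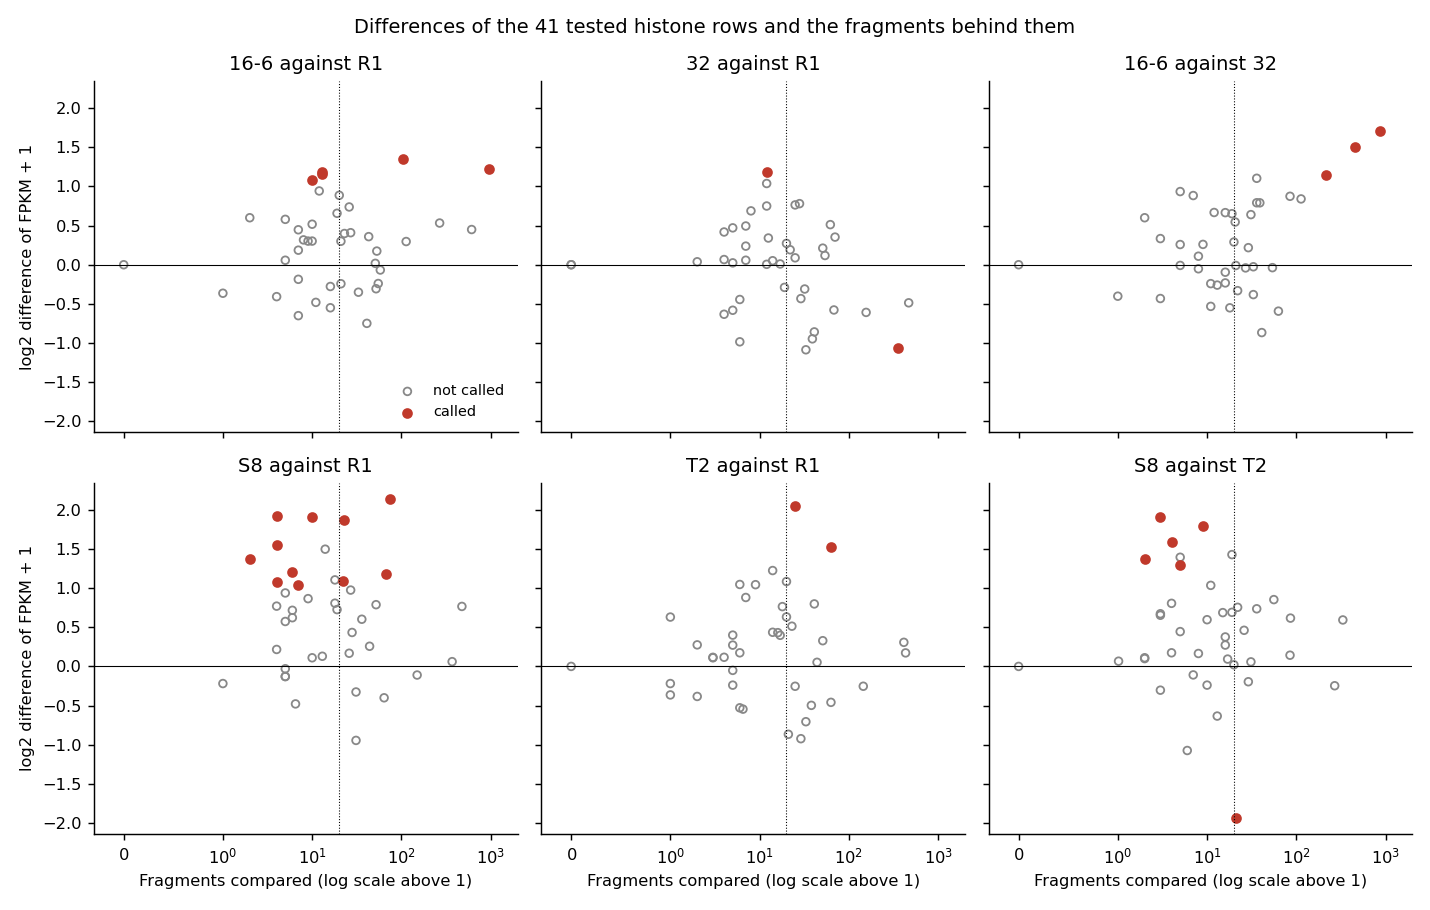
Log2 difference of FPKM + 1 for the 41 tested histone entries against the number of fragments in the libraries compared (log scale above 1), in 6 comparisons, with called entries filled and a dotted line at 20 fragments. The 3 calls of 16-6 against 32 lie at 214 fragments or more, while 7 of the 11 calls of S8 against R1 lie under 20.

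The signal-bearing entries were then summed in each library. The 13 entries with a poly(A) signal gave 26.6 and 25.8 fragments per 1000000 (FPM) in R1, 44.7 and 48.1 in 16-6, 15.3 and 13.3 in 32, 31.5 in S8 and 27.8 in T2. Both libraries of 16-6 were the highest of the 8 and both of 32 the lowest. Most of each sum came from Hist1h2bc, Hist1h1c, Hist3h2a and Hist1h4i, the first 3 of which were the genes called between these lines. Together these 4 genes accounted for 37.3 and 41.7 FPM of the 16-6 sums. Their part of the sums of 32 was 11.9 and 10.5 FPM. The 54 entries without a signal gave 10.2 and 9.97 FPM in R1, 10.7 and 12.3 in 16-6, 9.13 and 10.7 in 32, 12.97 in S8 and 11.6 in T2. On this scale R1 and 32 overlapped and the whole range was narrow. In FPKM the same entries summed to 51.4 and 49.7 in R1, 55.4 and 63.6 in 16-6, and 49.1 and 59.5 in 32. S8, at 94.3 FPKM, and T2, at 70.9 FPKM, lay above these, so that the range was wider in FPKM. Entries with a signal made up 78.7% to 79.3% of histone fragments in 16-6 and 54.2% to 60.5% in 32. Their share of the summed histone FPKM was 56.3% to 58.0% in 16-6 and 30.4% to 36.4% in 32. Of the 8 tested entries with a signal, 8 were higher in 16-6 than in 32, with a median log2 difference of 0.86 and 3 called. Of the 32 tested without a signal, 14 were above 0, with a median of -0.01 and 0 called. The share called over all genes was 10.3%. Among the 32 without a signal, 21 were listed to a point before the stem-loop, as were 38 of the 54. For these a signal further on was not looked for, so that the split follows the listed ends and not measured polyadenylation. The tested entries with a signal had a median of 194.5 fragments over the 8 libraries and those without 24.5, so that the counting error was wider in the latter. Hist1h1a, without a signal, differed by less than the fold minimum, as given above. The split by signal was made after earlier results of these libraries were known and is given as a description.

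**Figure D4:**
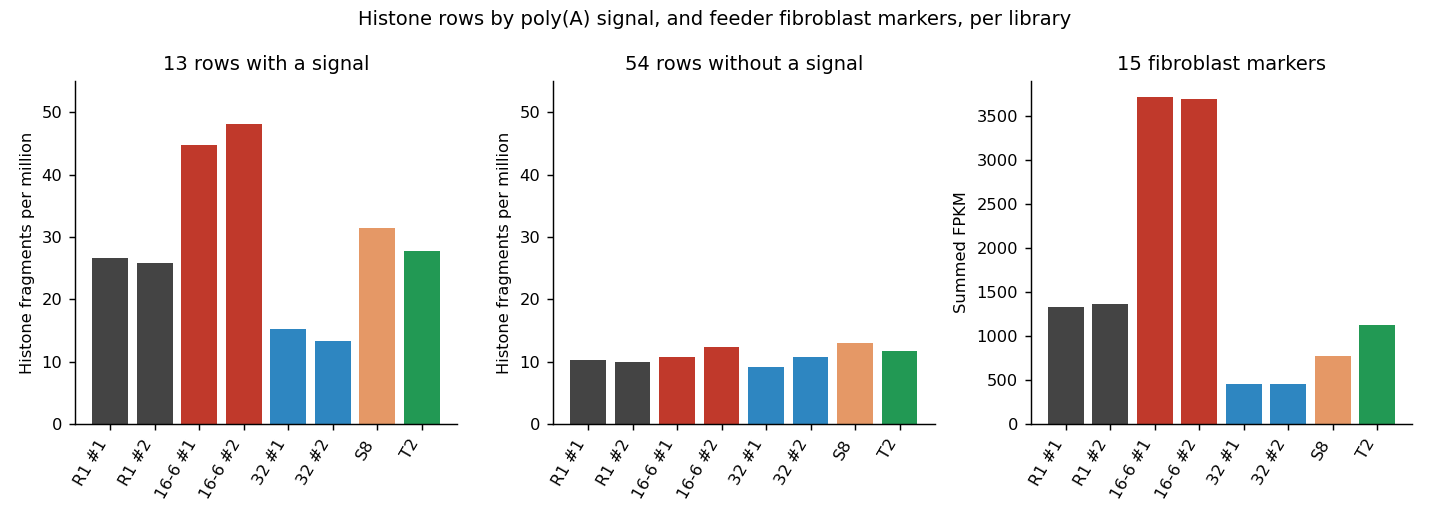
FPM (fragments per 1000000) of the 13 histone entries with a poly(A) signal near the listed end (left), of the 54 without one (middle), and summed FPKM of 15 fibroblast markers (right), with 1 bar per library. The bars of 16-6 are the tallest and those of 32 the shortest in the left and right panels, while the middle panel spans 9.13 to 12.97 FPM.

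Feeder fibroblast markers were also highest in 16-6 and lowest in 32, but in S8 and T2 they lay below R1, while the histone entries with a signal did not. The 15 markers, Col1a1, Fn1 and Thy1 among them, were above 0 in every library and summed to 1324 and 1366 FPKM in R1, 3710 and 3694 FPKM in 16-6, 458 and 455 FPKM in 32, 778 FPKM in S8 and 1129 FPKM in T2. All 15 were called higher in 16-6 than in 32. Against R1, 8 were higher and 2 lower in 16-6, and 1 was higher and 11 lower in 32. In S8 1 was higher and 6 were lower than in R1, and in T2 2 were higher and 5 lower, with median log2 differences of -0.82 and -0.29. The order was not the same for each marker, since Dcn, which codes for decorin, was at 217 and 204 FPKM in R1, 32.9 and 33.3 FPKM in 16-6 and 0.605 and 0.890 FPKM in 32. Markers of pluripotent cells had their lowest sums in 16-6. Their 10 members summed to 4392 and 4768 FPKM in R1, 2805 and 2867 FPKM in 16-6, 5408 and 4653 FPKM in 32, 5676 FPKM in S8 and 3748 FPKM in T2. In 16-6 0 were called higher and 2 lower than in R1 (median -0.73), and 0 higher and 3 lower than in 32 (median -0.79). Against R1, 0 were higher and 1 lower in 32, 1 higher and 3 lower in S8, and 0 higher and 2 lower in T2. For both groups of markers, the shares called over all genes against R1 were 7.11% in 16-6, 9.77% in 32, 16.7% in S8 and 10.5% in T2. Between 16-6 and 32 the share was 10.3%. The part of either group of markers in the histone differences was not tested. In bulk RNA, fewer cells of a type and less RNA per cell cannot be told apart.

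S8, the epidermal line, had the most histone genes called, although few of them rested on many fragments. Hist1h4i was at 15.4 FPKM on 49 fragments in S8, 1 library, against 11 and 15 fragments in R1. The counting interval of the S8 value was 11.4 to 20.4 FPKM, above both R1 libraries, and the log2 difference was 2.14 (SE 0.17, adjusted p = 0.000372). Hist1h1a, the linker histone H1.1, was at 6.20 FPKM on 36 fragments, with an interval of 4.34 to 8.59 FPKM, against 2.16 and 2.19 FPKM in R1 (1.18, SE 0.07, adjusted p = 0.000196). Hist1h2bc, at 33.9 FPKM, lay above R1 by 0.77 (SE 0.26, adjusted p = 0.0462), under the fold minimum, and Hist1h1c, at 8.20 FPKM, lay between the R1 libraries.

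In all, 11 of the 41 entries were higher in S8 than in R1 and 0 lower, with 16 at an unadjusted p under 0.05, while 16.7% of all genes were called, 6.93% higher and 9.74% lower. The called genes were of every type, with 1 H1, 3 H2A, 2 H2B, 3 H3 and 2 H4. Of these calls 7 rested on fewer than 20 fragments over the libraries compared. Hist2h3b, an H3 gene, was listed at 0 in 6 libraries and at 2.78 FPKM in S8 on 4 fragments, and Hist1h2an, an H2A gene, was listed at 0 in both R1 libraries and at 1.60 FPKM in S8 on 2 fragments. Both of these genes and Hist1h4f reached 1 FPKM in S8 alone and so were tested only because of S8. Without them 8 of 38 were higher, against 6.77% of all genes called higher by the same rule, and 16.6% in either direction. Where R1 replicates were all at 0 they had no spread, and the error came from the other genes. The other called genes were Hist1h3h, Hist1h2ag, Hist1h4f, Hist1h2bm, Hist1h2ae, Hist1h3i and Hist1h2bk. The median of the 41 was 0.73, against -0.03 over all genes, and without the first R1 library the count was 7.

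The S8 values depended on how fragments were turned into FPKM. For Hist1h4i the FPKM given for each FPM was 1.56 times that of the first R1 library in S8 and 1.32 times in T2, against 1.07 in both libraries of 16-6. For Hist1h2bc the factor was 1.37 in S8 and 1.18 in T2. Over 3277 other genes the median factor was 1.09 in S8, with 0.775 and 1.54 as the 5th and 95th percentiles. With FPM and a single factor for each gene, an alternative chosen after the data were seen, 4 histone genes were called in S8 against R1 instead of 11, 3 higher and 1 lower. The cause of the different factors was not tested.

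In T2, the stomach lining line, 2 of the 41 entries were higher than in R1 and 0 lower, with 9 at an unadjusted p under 0.05. Over all genes 10.5% were called, 3.95% higher and 6.54% lower. Hist1h4i was at 9.71 FPKM on 37 fragments, with an interval of 6.83 to 13.4 FPKM above both R1 libraries (1.53, SE 0.17, adjusted p = 0.00158). Hist2h4, an H4 gene of the Hist2 cluster, was at 10.02 FPKM on 18 fragments in T2 and at 0.48 to 2.68 FPKM in the other 7 libraries (2.05 against R1, SE 0.45, adjusted p = 0.0139). Its T2 interval of 5.94 to 15.8 FPKM lay above every other library. The abundant genes Hist1h2bc (22.2 FPKM, 0.17) and Hist1h1c (9.92 FPKM, 0.31) were not called. The median of the 41 was 0.17, against -0.03 over all genes, and without the second R1 library the count was 4.

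Between the unreplicated lines, S8 and T2, 5 entries were higher in S8 and 1 lower, while 2.75% of all genes were called, 0.92% higher and 1.83% lower. Hist2h4 was the lower gene (-1.94, SE 0.52, adjusted p = 0.0415). The 5 higher genes were Hist1h4f, Hist1h3h, Hist1h2bm, Hist1h2an and Hist2h3b, with 2 to 9 fragments each in both libraries together. Of these, Hist1h4f, Hist1h2an and Hist2h3b passed the filter only through S8, and without them 2 of 38 were higher and 1 lower, against 2.61% of all genes called by the same rule. Hist1h4i, with 49 and 37 fragments, was not called (0.62, SE 0.19, adjusted p = 0.0625). The spread in this comparison came from the replicates of the other lines, and without either 16-6 library 3 genes were called.

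Summed over all 73 entries, histone RNA was at 97.6 and 90.8 FPKM in R1, 139 and 150 FPKM in 16-6, 83.0 and 88.5 FPKM in 32, 172 FPKM in S8 and 125 FPKM in T2. Both values of 32 lay just below those of R1, and the other lines lay above both. In FPM the sums were 37.7 and 36.1 in R1, 56.4 and 61.2 in 16-6, 25.3 and 24.6 in 32, 45.2 in S8 and 39.9 in T2. On this scale 16-6 and not S8 was the highest, and 32 was apart from R1, with 95% counting intervals of 22.9 to 27.9 and 22.2 to 27.1 in 32 against 34.7 to 40.8 and 33.2 to 39.1 in R1. The interval of T2, 37.0 to 43.1, overlapped those of R1. Intervals cover counting error only. With quantile normalization the summed FPKM of 32 was 1.27 times that of R1 instead of 0.910 times.

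**Figure D5:**
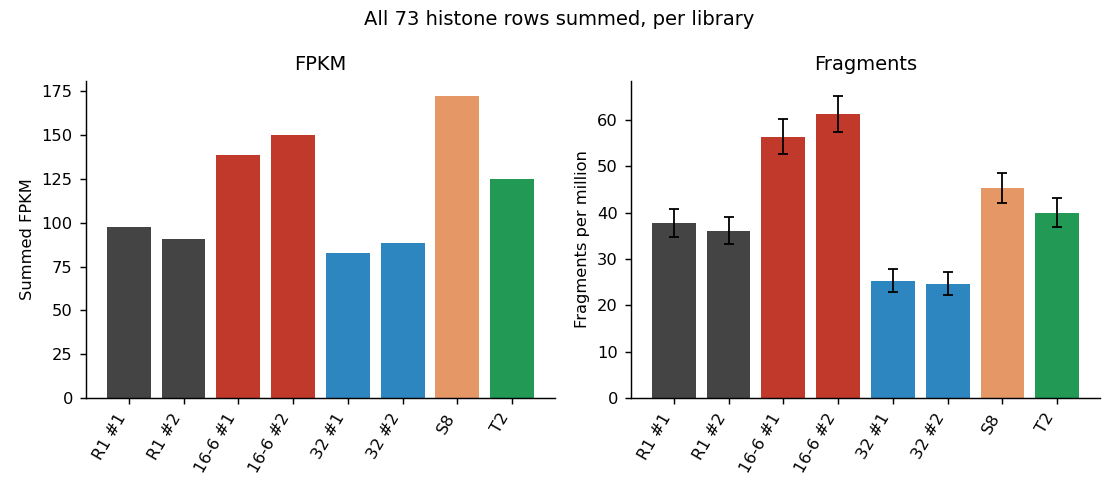
Summed FPKM (left) and summed FPM (right) of the 73 histone entries, with 1 bar per library and error bars for 95% counting intervals. S8 is the tallest bar on the left at 172 FPKM, and the 16-6 libraries are the tallest on the right at 56.4 and 61.2 FPM.

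The types did not share a single pattern. Relative to R1, the summed FPKM of 16-6 was 2.05 times for H2B, and 1.17 to 1.38 times for the other 4 types. In 32 it was 0.698 times for H1 and 0.826 to 1.06 times for the others, but H1 stood at 1.27 times R1 without Hist1h1c. With quantile normalization the values of 32 were 0.988 for H1, 1.36 for H2A, 1.05 for H2B, 1.65 for H3 and 1.49 for H4. In S8 it was highest for H3 (2.27 times) and H4 (2.09 times), and lowest for H2A (1.54 times). With FPM and a single factor for each gene, H3 stood at 1.56, H4 at 1.41 and H2A at 0.990 times R1 in S8, and without Hist1h1c H1 stood at 2.76 times instead of 1.61. In T2 the range was 1.19 to 1.504 times. Of the values by type or cluster under the alternatives 93 moved by more than the spread between the R1 libraries and 47 did not. Single genes weighed on these sums. H2B in R1 was 31.8 and 30.3 FPKM and in 16-6 61.8 and 65.6 FPKM, of which 9.69 and 13.1 FPKM in R1 and 18.7 and 14.3 FPKM in 16-6 were left without Hist1h2bc. By cluster, Hist3 stood at 0.440 times R1 in 32, and Hist2 at 2.45 times in T2, where Hist2h4 gave 10.02 of 14.3 FPKM.

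Histone genes known for expression in male germ cells were at or near 0. Hist1h1t, the testis linker histone, was at 0 in 5 libraries and at 0.10, 0.22 and 0.39 FPKM in the second 16-6 library, S8 and T2, on 1, 2 and 4 fragments. Hist1h2aa, a testis H2A gene, was at 0.41 FPKM in the second R1 library and 0.93 FPKM in T2, on 1 and 2 fragments, and Hist1h2ba, a testis H2B gene, at 0.36 FPKM in the first 16-6 library on 1 fragment. None of these 3 genes was tested, and at this depth a difference between the lines was not detectable. Germ cell markers numbered 6, of which 4 were tested, and Tnp1 was at 0 in every library. In each iPSC line 0 were called higher and 2 lower than in R1, namely Sycp3 and Tex14. The others tested were not called. Over all genes 3.53% were called lower in 16-6, 8.23% in 32, 9.74% in S8 and 6.54% in T2.

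Genes that make and process histone mRNA were taken from a list of 24 factors, of which 23 were tested. In 16-6, 32 and T2 0 were called against R1, where 7.11%, 9.77% and 10.5% of all genes were. In S8 2 were higher and 1 lower, near the 16.7% of all genes. Ccne1 (cyclin E1), whose kinase complex drives histone transcription at the start of S phase, was at 324 FPKM in S8 and 129 and 130 FPKM in R1 (1.32, SE 0.05, adjusted p = 7.44e-05). Srrt, a cofactor of the nuclear cap-binding complex, was higher in S8 by 1.27, and Casp8ap2 (FLASH), a 3′ processing factor, was lower (-1.03). Slbp was at 114 FPKM in both R1 libraries, 77.4 and 79.7 FPKM in 16-6, 111 and 116 FPKM in 32, 210 FPKM in S8 and 184 FPKM in T2. It was not called in any line against R1, since no difference reached the fold minimum, and both 16-6 libraries were the lowest.

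Replacement histone genes and chaperones were compared in the same way, against the shares of 7.11%, 9.77%, 16.7% and 10.5% called over all genes in 16-6, 32, S8 and T2. Of 11 tested replacement histone genes, 4 were higher in S8 and 1 in T2, with 0 called in 16-6 and 32. H1fx, a linker histone variant, was higher in S8 by 1.55, H2afy2 (macroH2A2) by 1.53 and H2afx, the variant phosphorylated at DNA breaks, by 1.31. Of 16 chaperones 2 were higher in S8, Daxx (1.12) and Chaf1b (1.09), and Atrx, the partner of Daxx in loading H3.3, was lower (-1.43), with 0 called in the other lines. These 3 of 16 were near the share over all genes in S8. Of 22 S phase genes only Cdc6, which licenses replication origins, was called against R1, in S8 (1.27) and T2 (1.18). The median of these 22 was -0.49 in 16-6, the line with the most histone fragments, against -0.03 over all genes.

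Other RNAs made without a poly(A) tail varied between lines and also between replicates. Of 7 tested, 0 were higher and 1 lower in 16-6 than in R1, 2 higher and 0 lower in 32, 2 higher and 0 lower in S8, and 0 higher and 1 lower in T2. Over all genes 7.11%, 9.77%, 16.7% and 10.5% were called in 16-6, 32, S8 and T2. Rpph1, the RNA of RNase P, was at 5.20 and 6.76 FPKM in R1, 3.87 and 2.56 FPKM in 16-6, 30.5 and 50.2 FPKM in 32, 14.2 FPKM in S8 and 9.69 FPKM in T2. It was lowest in 16-6 and highest in 32, whereas the histone fragment sums were highest in 16-6 and lowest in 32. The summed level of the 7 was 66.6 and 352 FPKM in the 2 libraries of 32 alone, so that these RNAs were not alike between replicates. How completely poly(A) RNA was selected in each library was not tested.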

How the data were processed

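RNA was measured in 8 libraries of 5 lines, grouped by the labels. As the authors state, oligo(dT)-selected RNA was sequenced in paired reads, mapped with TopHat 2.0.4 to UCSC genes (mm9), and unique alignments were kept. The deposited values are FPKM with confidence limits from Cufflinks, for which the submitters' notes name version 2.0.0 and the methods a later release. Its options are not given in the sources used here. The members, gene lists and tests were chosen with earlier results of these data known.

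Every deposited FPKM was divided by 1 common constant, 12726, which brings the median library total to 1000000 and leaves ratios unchanged. The fragments implied by the limits were taken as (2 × FPKM / width) squared, with width the upper limit less the FPKM, which gives whole numbers for genes with 1 transcript. The study lists more reads for S8 and T2 than for the other lines, which these fragments do not show. A count of 0 allows up to 3 fragments.

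Genes with at least 1 FPKM in at least 1 library (13693) were tested on log2(FPKM + 1) with limma 3.58.1 in R 4.3.3 (eBayes with a trend), with 8 libraries in 5 groups and 3 residual degrees of freedom, all from R1, 16-6 and 32. The log2(FPKM + 1) scale understates changes of low genes. The fit was also run on simulated fragments with sampling spread alone, where genes of few fragments were left unchanged. Only 16-6 against R1 was read, so that the run does not cover the single libraries or calls on few fragments. Named genes were the 10 highest members, the highest of each type and cluster, up to 5 called members per comparison, the testis members, and up to 3 called genes per list. Other members were named after their values were seen.

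Stem-loops, poly(A) signals and windows were read from NCBIM37 (mm9), with stop codons from GENCODE vM1. Python 3.11.15, pandas 2.3.3, numpy 2.4.6, scipy 1.17.1 and matplotlib 3.10.9 were used. Alternatives were another pseudocount, other filters, quantile and total scaling, no fold minimum, no trend, each replicate left out and a replicate block, and, added after the data were seen, fragments per 1000000 with 1 factor per gene, a minimum of 20 fragments, and only entries that reached 1 FPKM outside the first line compared.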

Additional observations from a re-analysis of the deposited data

How the results depend on the processing

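No call of a named member changed direction under the alternatives run, and over the named members 316 values kept their call and 64 lost it. The called genes Hist1h2ae and Hist1h2bk were not followed in this way. Hist1h2bc and Hist1h4i kept theirs in every alternative. Hist1h1c in 32 against R1 missed the fold minimum with quantile normalization (-0.73) and without the second R1 library (-0.998), and Hist3h2a in 16-6 against 32 missed it with quantile normalization (0.79) and without the second 16-6 library (0.99).

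Counts of called histone genes moved more. Shares called over all genes under each alternative are not given here or for libraries left out. The counts below therefore cannot be set against a background. With 1 FPKM required in every library, which leaves 10 of them, they were 2 in 16-6, 1 in 32, 2 in S8 and 1 in T2 against R1, 0 in S8 against T2 (5 at an unadjusted limma p under 0.05) and 8 over the 5 lines. Without a fold minimum they were 9 in 16-6, 9 in 32 and 7 in T2 against R1, and 10 in 16-6 against 32. With pseudocount 0.1 they were 4 in 32 and 5 in T2 against R1, 7 in 16-6 against 32 and 3 in S8 against T2, and without a filter 2 in S8 against T2. In 32 against R1 quantile and total scaling gave 4 each, 4 higher and 0 lower with the former, 1 higher and 3 lower with the latter, which moved the median of all genes to -0.20. With fragments per 1000000 and 1 factor per gene the counts were 4 in 32 and 4 in S8 against R1, 2 in S8 against T2 and 10 over the 5 lines. With at least 20 fragments they were 2, 1 and 4 in 16-6, 32 and S8 against R1 and 1 in S8 against T2. Among entries that reached 1 FPKM outside S8, 3 were called in S8 against T2 instead of 6, and 8 in S8 against R1.

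Leaving out 1 library gave 2 to 6 calls in 16-6 against R1 (2 without the first R1 library, 3 without the second 16-6 library), 2 to 5 in 32 (4 without the second R1 library, 5 without the first library of 32), 7 to 12 in S8 (7 without the first R1 library) and 2 to 4 in T2 (4 without the second R1 library). It gave 3 to 8 in 16-6 against 32 (8 without the first library of 32), 3 to 7 in S8 against T2 (3 without either 16-6 library) and 13 to 18 over the 5 lines. A line left with 1 library was assumed to vary like the others.

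The summed level over R1 was 1.53 in 16-6, 0.910 in 32, 1.83 in S8 and 1.33 in T2. Quantile normalization gave 1.68, 1.27, 2.21 and 1.51, so that 32 moved from below to above R1. Total scaling gave 0.785 in 32 and 1.53 in S8, leaving out Hist1h2bc gave 1.31 in 16-6 and 0.964 in 32, and 1 factor per gene gave 0.8003 in 32, 1.29 in S8 and 1.09 in T2.

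Replicate numbers did not pair the libraries (correlations of deviations -0.10, 0.00 and 0.03). With the replicate block over the 6 replicated libraries, 5, 2 and 3 genes were called in 16-6 against R1, 32 against R1 and 16-6 against 32, and without it 5, 2 and 3. Depth limits most members, since 33 of the 41 tested had fewer than 20 fragments in every library.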
